A study of Mus musculus with 12 samples.

Results

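The comparison described here set the effect of a miR-29 mimic in wounded mouse skin against the effect of a miR-29 inhibitor in unwounded skin. For each gene, the mimic effect was the level in incised skin given promiR-29 minus that in incised skin given PBS, and the antimiR effect was the level in intact skin given antimiR-29 minus that in intact skin given PBS. The difference of effects is the first minus the second, and the mean of effects is their average, both in log2 units. All 12 arrays of the series entered, and both effects were measured for 20357 of 20375 named genes. No array contributed to both effects.

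The skin came from male C57BL/6 mice of about 8 weeks. Sutured incisions of 1 cm received an intradermal injection of PBS or of 100 nmol of promiR-29, a mimic of miR-29b, 72 h after wounding. Unwounded skin was injected with PBS or with 100 nmol of antimiR-29. Skin was harvested 24 h after injection, and each of the 4 groups held 3 samples that the labels call biological replicates. Total RNA was labelled with Cy5 and hybridised with a Cy3-labelled universal mouse reference RNA on 60-base probe arrays, so each level is a log2 ratio of skin over reference. The groups contain PBS as the sole control and no control oligonucleotide. The mimic was given to wounds and the inhibitor to intact skin, so in the difference of effects the oligonucleotide and the state of the skin cannot be told apart.

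MicroRNAs are short RNAs that pair through their seed with sites in messenger RNAs and lower their stability or translation. The miR-29 family is best known for repressing messages of collagens, elastin, fibrillin and other matrix proteins, and its level is inversely related to matrix deposition in skin and other organs. A mimic supplies the microRNA as a duplex, whereas an antimiR is an antisense strand that binds the endogenous microRNA. The comparison asks which genes the pair moved in opposite directions, as a direct target of miR-29 would be, and which in the same direction. The mature sequences of the family are shown because both oligonucleotides are defined by them. RefSeq (GRCm38.p6) gives them as follows, 5′ to 3′, with the seed, bases 2 to 8, in capitals.
miR-29a-3p: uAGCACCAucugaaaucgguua
miR-29b-3p: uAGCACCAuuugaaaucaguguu
miR-29c-3p: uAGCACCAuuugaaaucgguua
The 3 microRNAs share the seed AGCACCA, and the matching site in a message reads TGGTGCT. Counted from the 5′ end of miR-29b-3p, which is 1 base longer than the other 2, miR-29a-3p differs by U10C, A18G, G21U and U22A, and miR-29c-3p by A18G, G21U and U22A. The sequences of the injected oligonucleotides themselves were not used here.

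On the arrays, 65.6 to 73.8% of probes were well above background in Cy5 and no spot was saturated. All 8 basal keratinocyte markers and all 21 epidermal differentiation markers were above background on all 12 arrays, as were 26 of 26 skeletal muscle and 15 of 15 fibroblast markers, so the samples held tissue beneath the epidermis. Arrays correlated with the others of their group at a median r of 0.940 to 0.976, except intact PBS 3 at 0.921. The arrays lay on 3 slides. Slide 1 held all 3 incised PBS arrays and mimic array 1, slide 2 mimic arrays 2 and 3 with intact PBS arrays 1 and 2, and slide 3 intact PBS array 3 with all 3 antimiR arrays. With slide as a term in the model, the mimic effect therefore rested on mimic array 1 and the antimiR effect on intact PBS array 3, so each effect then had 1 array on one side.

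Genes that moved alike outnumbered genes that moved oppositely. At a Benjamini-Hochberg adjusted p under 0.05 in limma, the difference of effects was called for 223 genes (1.1% of those tested), of which 128 were higher and 95 lower (0.629% and 0.467%). The mean of effects was called for 1921 genes (9.44%), 1034 higher and 887 lower (5.08% and 4.36%). A gene was counted as moved oppositely if its difference was called, its effects had opposite signs and each was at least 0.5 in size, which held for 6 genes (0.0295%). A gene was counted as moved alike if its mean was called, its difference was not, and both effects had the same sign and were at least 0.5 in size, which held for 287 genes (1.41%), 193 higher and 94 lower (0.948% and 0.462%). A difference that was not called does not show that the effects were equal. With slide as a term, 17 genes were called for the difference, of which 9 were among the 223, and 1321 for the mean, of which 775 were among the 1921. Single arrays moved the count for the difference widely. It was 415 without intact PBS array 3, 64, 146 and 105 without incised PBS arrays 1, 2 and 3, 128, 90 and 101 without mimic arrays 1, 2 and 3, and 117 and 135 without antimiR arrays 2 and 3. The count for the mean was 1271 and 1248 without mimic arrays 1 and 2.

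In the fit over all 12 arrays the antimiR effect was called for 1986 genes (9.76%) against 120 for the mimic effect (0.589%), and 79 of the mimic calls were falls (0.388%). With each effect fitted in its own 6 arrays the counts were 539 and 437, a much smaller gap. In those separate fits 37 genes were called in both effects, all in the same direction. Called in both effects were 42 genes (0.206%), 26 higher in both and 16 lower in both, and 0 genes were called in opposite directions. These 42 made up 35% of the mimic calls and 2.12% of the antimiR calls. The mimic calls were 1, 22 and 7 without incised PBS arrays 1, 2 and 3, 13 to 53 without 1 mimic array, 74 without antimiR array 2, and 68, 245 and 238 without intact PBS arrays 1, 2 and 3. The antimiR calls were 1093 and 1321 without antimiR arrays 2 and 3. The 42 became 99 without intact PBS array 2, 24 without intact PBS array 1, 23 without antimiR array 2 and 1 to 19 without any 1 incised array. At an unadjusted p under 0.05 in each effect there were 1032 genes, 897 with the same sign and 135 with opposite signs, and of the latter 84 were lower with mimic and higher with antimiR. Across all genes the effects correlated at Pearson r = 0.369 and Spearman rho = 0.299 and had the same sign in 59.2%. That correlation is across genes, which are not independent, and it was 0.457 with slide as a term.

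**Figure D1:**
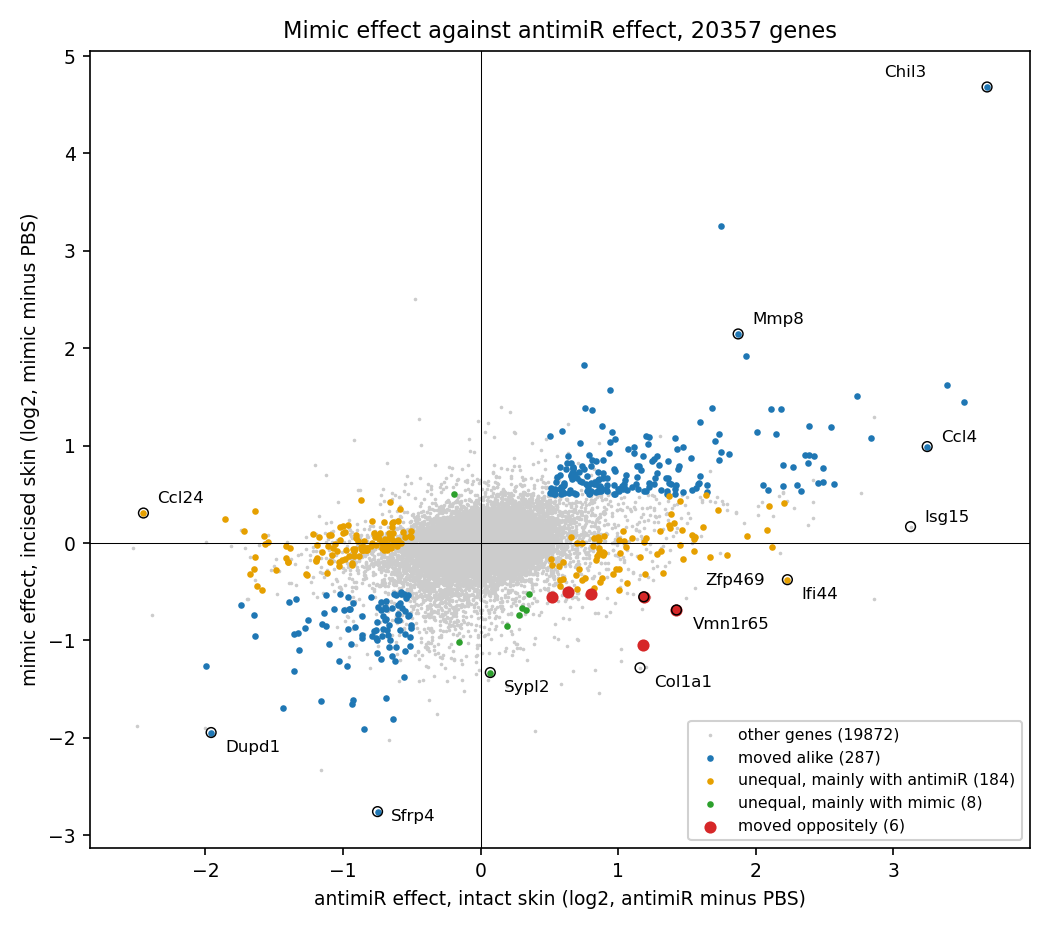
Mimic effect in incised skin (vertical, log2, mimic minus PBS) against antimiR effect in intact skin (horizontal, log2, antimiR minus PBS) for 20357 genes, each point 1 gene. The 287 genes moved alike lie in the upper right and lower left, and the 6 genes moved oppositely lie in the lower right, all lower with mimic and higher with antimiR.

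All 6 genes moved oppositely were lower with mimic and higher with antimiR, the direction of a repressed target. They were Zfp469, Vmn1r65, Bdh2, Camk2a, Ubtd2 and F830016B08Rik. Their mimic effects were between -1.05 and -0.50, and 0 of the 6 were called for the mimic effect taken alone in limma, where all 6 had an unadjusted p under 0.05. The count of 6 was 2 without incised PBS array 1, 3 without mimic array 3, 12 without incised PBS array 2 or intact PBS array 3, and 17 without intact PBS array 2. Vmn1r65, Bdh2, Camk2a, Ubtd2 and F830016B08Rik lost their calls with slide as a term, at adjusted p from 0.101 to 0.179, while each kept its direction. All 6 kept opposite signs in each of the 24 alternative analyses.

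Zfp469 encodes a zinc finger protein whose human counterpart is mutated in brittle cornea syndrome, a connective tissue disorder, and it showed the most stable opposite movement. Its probe lies at chr8:124796480-124796539 (mm9, as the array files give it). In incised skin its log2 ratio was -0.28, -0.17 and -0.03 with PBS and -0.70, -0.55 and -0.88 with mimic. In intact skin it was -0.35, -0.49 and -0.68 with PBS and 0.68, 0.71 and 0.65 with antimiR. The groups did not overlap in either skin, and the antimiR arrays lay above all 9 others. The mimic effect was -0.55 ± 0.11 (SE, adjusted p = 0.0624), the antimiR effect 1.19 ± 0.11 (adjusted p = 0.000223) and the difference -1.74 ± 0.16 (adjusted p = 0.0016, limma). With slide as a term the difference was -1.90 (adjusted p = 0.0243), and its call was kept in 24 of 24 alternatives.

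Bdh2, a cytosolic dehydrogenase, and Ubtd2, a ubiquitin-domain protein, followed the same order at smaller size. Bdh2 (chr3:134967309-134967368) measured 0.71, 0.38 and 0.48 in incised skin with PBS and 0.20, 0.05 and -0.26 with mimic, and 0.06, -0.01 and 0.17 in intact skin with PBS and 1.03, 0.66 and 0.93 with antimiR. Its groups did not overlap in either skin, and the difference of effects was -1.33 ± 0.20 (adjusted p = 0.0139, limma). Ubtd2 (chr11:32418614-32418673) measured 0.06, 0.20 and 0.13 with PBS and -0.25, -0.37 and -0.66 with mimic, and -0.11, -0.04 and -0.38 with PBS and 0.45, 0.28 and 0.28 with antimiR. Again no array of a treated group reached its PBS group, and the difference was -1.07 ± 0.17 (adjusted p = 0.0176). Without incised PBS array 1 the adjusted p for Ubtd2 was 0.0502.

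Vmn1r65, a vomeronasal receptor gene, had the second largest difference of the 6, at -2.11 ± 0.33 (adjusted p = 0.0155, limma). Its incised PBS arrays measured 1.08, 0.54 and 0.47 against 0.23, 0.00 and -0.22 with mimic, and its intact PBS arrays -0.10, 0.04 and -0.48 against 0.79, 1.59 and 1.35 with antimiR. F830016B08Rik had the largest, -2.23 ± 0.45 (adjusted p = 0.0444), with one intact PBS array, at 1.46, below the other two at 2.28 and 2.52, and its call was kept in 7 of 24 alternatives. Camk2a, a calmodulin-dependent kinase subunit, had a difference of -1.14 ± 0.22 (adjusted p = 0.0363) on its brightest probe, but its other probe gave -0.09. Its call was kept in 11 of 24 alternatives. The size limit of 0.5 passed Camk2a, with a mimic effect of -0.50, and left out Lca5l, whose difference was called at -0.88 with effects of -0.52 and 0.35.

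**Figure D2:**
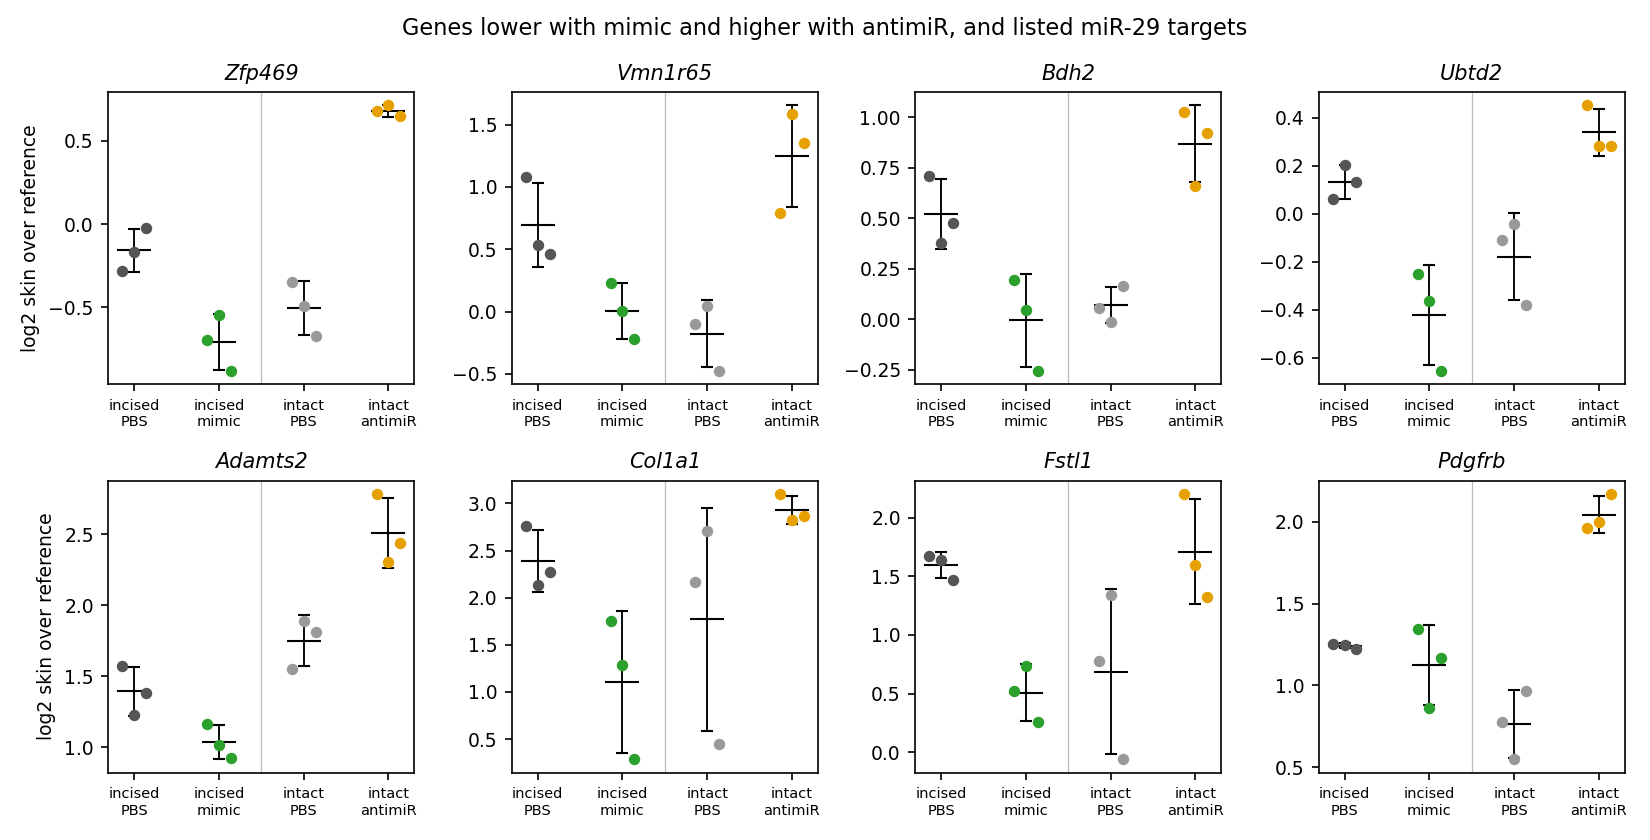
Log2 ratio of skin over reference on every array (points) with the mean and SD of each group of 3 (black), for 4 genes moved oppositely and for Adamts2, Col1a1, Fstl1 and Pdgfrb from the miR-29 target lists. Zfp469 has 3 antimiR arrays between 0.65 and 0.71 and no other array above 0; in Col1a1 mimic array 3 and intact PBS array 3 lie far below the rest of their groups.

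The known matrix targets of miR-29 leaned in the opposite directions as a group, but nearly all missed the test. Of 25 listed collagens, elastin, fibrillin, crosslinking enzymes and other matrix genes, 24 were measured, and 18 were lower with mimic and higher with antimiR, compared with 4373 of all 20357 genes (21.5%). Their median mimic effect was -0.72, their median antimiR effect 0.31 and their median difference -1.04, against -0.001, 0.011 and -0.016 over all genes. One of the 24, Adamts2, was called for the difference (background 0.467% lower), and 0 were called for the mean in limma. At an unadjusted p under 0.05, 15 passed for the difference and 2 for the mean. Groups did not overlap in either skin, in opposite directions, for Col1a1, Col1a2, Serpinh1 and Adamts2 (background 1.46%). The list was drawn from textbook knowledge with earlier results of these data known, so it is no independent evidence of its direction.

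Type I collagen shows how wide the spread was. Col1a1, which encodes the main chain of fibrillar collagen in dermis, measured 2.76, 2.13 and 2.28 in incised skin with PBS and 1.75, 1.29 and 0.28 with mimic, and 2.17, 2.71 and 0.44 in intact skin with PBS and 3.10, 2.83 and 2.87 with antimiR. Its groups did not overlap, but mimic array 3 and intact PBS array 3 lay more than 1 log2 unit below the others of their group. The mimic effect was -1.28 ± 0.51 and the antimiR effect 1.16 ± 0.51, with a difference of -2.44 ± 0.72 (adjusted p = 0.145, limma). Without intact PBS array 3 the difference was -1.77 (adjusted p = 0.0932). Col1a2, the partner chain, had a difference of -2.48 ± 0.62 (adjusted p = 0.0936), which was called without intact PBS array 2 (-2.89, adjusted p = 0.0449).

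The antimiR side of the matrix list rested more on single arrays than the mimic side did. Without intact PBS array 3 the median antimiR effect of the list was 0.077 and 15 of 24 genes were lower with mimic and higher with antimiR, and without antimiR array 1 it was 14 of 24. The median mimic effect stayed between -0.81 and -0.60 when any single array was left out. On the list score, the median over members of log2 ratios centred across the 12 arrays, the mimic arrays lay at -0.30, -0.34 and -0.52, below incised PBS at 0.26, 0.55 and 0.23. The antimiR arrays, at 0.37, 0.10 and -0.03, overlapped intact PBS at 0.01, 0.17 and -0.59. Fibroblast markers moved with the mimic side of this list, at scores of -0.27, -0.15 and -0.29 with mimic against 0.30, 0.18 and 0.33 with PBS, and lay at 0.18, -0.08 and -0.18 with antimiR against 0.33, 0.35 and 0.00 with PBS. Their part in the matrix values was not tested.

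Other members of the matrix list had differences of -1.68 ± 0.40 for Col5a2, a minor fibrillar collagen (adjusted p = 0.0845), and -1.50 ± 0.35 for Sparc, a collagen-binding matricellular protein (adjusted p = 0.0785). Col3a1 had -2.03 ± 0.81 (adjusted p = 0.28), elastin (Eln) -1.04 (adjusted p = 0.218) and fibrillin 1 (Fbn1) -1.05 (adjusted p = 0.543, limma). The basement membrane collagen Col4a4 had a difference of 0.11, and for Col4a3, which was not well above background on any incised array, no mimic effect could be measured, although it is among the 24 counted. Adamts2, the protease that removes the propeptide of fibrillar procollagens, had -1.11 ± 0.20 (adjusted p = 0.0289), but its other probe gave 0.01 and its call was kept in 11 of 24 alternatives.

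Among 38 other reported miR-29 targets, the median effects were -0.14 with mimic and 0.10 with antimiR, and the antimiR median was -0.003 with slide as a term. Pdgfrb, a growth factor receptor of dermal mesenchymal cells, was called lower for the difference. It measured 1.25, 1.25 and 1.23 with PBS and 1.35, 0.86 and 1.17 with mimic, and 0.78, 0.55 and 0.97 with PBS and 1.96, 2.00 and 2.17 with antimiR. Its antimiR arrays lay above all others, with an antimiR effect of 1.28 ± 0.13 (adjusted p = 0.000379) and a difference of -1.40 ± 0.19 (adjusted p = 0.00968, limma), lost with slide as a term (-0.97, adjusted p = 0.135).

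Fstl1, a secreted glycoprotein of mesenchymal cells, measured 1.68, 1.64 and 1.47 with PBS and 0.52, 0.74 and 0.26 with mimic, and 0.78, 1.34 and -0.06 with PBS and 2.20, 1.60 and 1.33 with antimiR. The mimic arrays lay below their controls, while the lowest antimiR array reached the highest intact PBS array, and the difference was -2.11 ± 0.44 (adjusted p = 0.0535, limma). It was called without intact PBS array 3 (-1.74, adjusted p = 0.0354) and without intact PBS array 2 (-2.44, adjusted p = 0.0233). The DNA methyltransferases Dnmt3a and Dnmt3b had differences of -0.84 (adjusted p = 0.0804) and -0.35 (adjusted p = 0.396), and the survival factor Mcl1 had -0.10 (adjusted p = 0.853). Of the array probes themselves, 118 contained the seed-matching letters TGGTGCT. Of these genes 29.7% were lower with mimic and higher with antimiR, against 21.5% of all genes tested. Called for the difference was 1 of the 118 (background 1.1%), Bst2, an interferon-induced membrane protein. Its effects were 0.13 with mimic and 2.08 with antimiR, so they did not have opposite signs.

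Most genes called for the difference changed with antimiR and hardly with mimic. Of the 223, 184 (82.5%) had a mimic effect under 0.5 in size, 110 of them lower and 74 higher with antimiR, whereas 8 (3.59%) changed mostly with mimic. A further 22 had both effects under 0.5, and 3 had the same sign with unequal size. A mimic effect under 0.5 is not shown to be absent.

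The genes lowered mostly by antimiR included several with very small spread. They were chosen for naming after their values were seen. Nipbl, which loads cohesin onto chromosomes, measured -0.54, -0.59 and -0.46 in incised skin with PBS, -0.38, -0.46 and -0.56 with mimic, -0.76, -0.64 and -0.63 in intact skin with PBS and -2.25, -2.26 and -2.24 with antimiR. The antimiR arrays stood more than 1 log2 unit below all 9 others, with an antimiR effect of -1.57 ± 0.08 (adjusted p = 8.5e-06) and a difference of 1.64 ± 0.11 (adjusted p = 0.000206, limma). Dstyk, a dual-specificity kinase, had a difference of 1.84 ± 0.15 (adjusted p = 0.0011), and Zfp871, a zinc finger gene, 1.56 ± 0.16 (adjusted p = 0.00319). Nipbl, Dstyk and Zfp871 kept their calls in 24 of 24 alternatives, slide as a term included.

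Snx27, a sorting nexin, had a difference of 2.10 ± 0.23 (adjusted p = 0.00609, limma) with 1 incised PBS array missing, and 0.78 on its other probe. Sdc4, a cell-surface heparan sulfate proteoglycan, was higher with mimic by 0.44 and lower with antimiR by 0.87, so its effects opposed each other in the direction not seen among the 6, and its difference was 1.31 ± 0.17 (adjusted p = 0.00745). Both calls were lost with slide as a term, at adjusted p = 0.0999 and 0.0699. Ccl24, an eosinophil-attracting chemokine, had the largest fall with antimiR of the genes named here. It measured 0.57, 1.25 and -0.62 in intact skin with PBS and -2.25, -1.80 and -2.11 with antimiR, and its incised arrays lay between -1.27 and -0.47. Its difference was 2.76 ± 0.54 (adjusted p = 0.0386), kept in 10 of 24 alternatives.

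Of the 31 lists, the interferon response had the largest median rise with antimiR. All 34 listed genes were called higher for the antimiR effect (background 5.28%) and 0 were called for the mimic effect in limma, where 2 had an unadjusted p under 0.05. Their median antimiR effect was 1.79 and their median mimic effect 0.27, and 31 of 34 were above 0 in both (30.5% of all genes were). The mean of effects was called higher for 30 of 34 (background 5.08%). The difference, as lower with mimic than with antimiR, was called for 8 of 34 (background 0.467%): Ifi44, Bst2, Gbp3, Xaf1, Dhx58, Rtp4, Parp9 and Ddx58. The number called for the difference was 0 with slide as a term, 3 without mimic array 2 or 3, 4 on Cy5 alone or without incised PBS array 1 or antimiR array 2, and 5 without mimic array 1 or antimiR array 3. The list was written with earlier results of these data known.

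Isg15, a ubiquitin-like protein that is among the most strongly interferon-induced genes, illustrates the levels. It measured 1.79, 0.77 and 1.07 in incised skin with PBS and 1.50, 1.65 and 1.00 with mimic, and -0.36, -0.66 and -1.95 in intact skin with PBS and 1.31, 2.89 and 2.21 with antimiR. The incised groups overlapped and both lay above intact PBS, and the antimiR arrays reached or passed the incised level. The antimiR effect was 3.12 ± 0.47 (adjusted p = 0.00244), the mimic effect 0.17 ± 0.47, the difference -2.96 ± 0.66 (adjusted p = 0.0653) and the mean 1.65 ± 0.33 (adjusted p = 0.0119, limma). The mimic and antimiR effects of this group were thus measured from unequal starting levels. On the list score, intact PBS lay at -0.91, -1.02 and -1.22, incised PBS at 0.52, -0.20 and -0.04, mimic at 0.49, 0.54 and 0.10, and antimiR at 0.35, 1.03 and 0.62.

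Dhx58, which encodes the RNA helicase LGP2 of the RIG-I family, measured 1.94, 1.32 and 1.51 with PBS and 2.11, 2.20 and 1.71 with mimic, and 0.24, 0.36 and -0.04 with PBS and 2.12, 2.63 and 2.42 with antimiR. Its difference was -1.79 ± 0.28 (adjusted p = 0.0155, limma), with an antimiR effect of 2.21 ± 0.19 and a mimic effect of 0.41. Parp9, an antiviral ADP-ribosyltransferase family member, had a difference of -1.50 ± 0.18 (adjusted p = 0.0066) on its brightest probe, but its other probe gave 0.02, and the deposited table gave -0.83 with no call (adjusted p = 0.0880). Gbp4, a guanylate-binding protein, had -1.81 ± 0.25 (adjusted p = 0.0106). Dhx58, Parp9 and Gbp4 lost the call with slide as a term, at adjusted p from 0.120 to 0.148, without a change of direction. The nucleic acid sensing list held 30 genes, the Toll-like receptors, RIG-I-like helicases, AIM2-like receptors and their adaptors. For the antimiR effect 20 of 30 were called higher (background 5.28%) and 1 lower (background 4.48%). For the mimic effect 0 were called (5 at an unadjusted p under 0.05, limma), and for the mean 18 were called higher (background 5.08%). Of these, Myd88, the Toll-like receptor adaptor, had effects of 0.46 and 0.46 and a mean called at an adjusted p = 0.0128, while Aim2, a DNA sensor, had 0.32 and 0.58.

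The Isg15 promoter is shown because this gene stood for the group above. The window of 100 bases begins 123 bases before the start (RefSeq, GRCm38.p6, chr4:156200842-156200941, minus strand), with overlapping matches to the interferon-stimulated response element in capitals.
Isg15: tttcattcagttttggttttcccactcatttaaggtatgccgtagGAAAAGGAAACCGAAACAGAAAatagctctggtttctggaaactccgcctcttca
The motif searched was GAAA, any 2 bases, GAAA, on both strands, from 250 bases before to 50 after the start. It was in 15 of 24 promoters of the interferon list with a sequence (62.5%), in 11 of 46 of the genes raised mostly by antimiR (23.9%), in 18 of 142 of the genes that moved alike upward (12.7%), and in 517 of 13629 of all tested genes (3.79%). A match is a description of letters and not a measured site.

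Among the 193 genes that moved alike upward, those with the largest mean included Chil3, Cd300lf, Slfn4, Ccl12, Ccl4, Mmp8, Sirpb1b, Pira2 and Mx1, with means between 1.80 and 4.18. Mmp8, the neutrophil collagenase (probe at chr9:7568238-7568297), measured 1.27, 1.51 and 1.28 in incised skin with PBS and 3.62, 3.53 and 3.35 with mimic, and -0.04, 0.74 and 0.06 in intact skin with PBS and 1.00, 2.78 and 2.59 with antimiR. No treated array reached its controls in either skin, and antimiR array 1 lay well below the other 2. Mmp8 rose by 2.15 ± 0.38 with mimic (adjusted p = 0.0372) and by 1.87 ± 0.38 with antimiR (adjusted p = 0.0126), a difference of 0.28 ± 0.54 (adjusted p = 0.895, limma) and a mean of 2.01 ± 0.27 (adjusted p = 0.00199). That difference was -0.28 without antimiR array 1.

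Chil3, a chitinase-like product of activated macrophages and neutrophils, had the largest mean and a wide spread. Incised PBS arrays 2 and 3 measured -1.48 and -1.39 with array 1 missing, against 3.35, 2.82 and 3.58 with mimic, and intact PBS -2.38, -1.84 and -2.86 against -1.38, 4.34 and 1.00 with antimiR. The mean was 4.18 ± 0.82 (adjusted p = 0.0126, limma), while neither effect was called alone, at adjusted p = 0.133 and 0.0634. Cd300lf, a myeloid receptor, had effects of 1.62 and 3.39, and its other probes gave means of 2.28 and 0.56 against 2.50. Mx1, an interferon-induced GTPase, kept its call for the mean in 13 of 24 alternatives, and a second probe of Pira2, a receptor of a gene family with close copies, gave -0.07 with antimiR, so Pira2 is uncertain.

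Among the 26 genes called higher in both effects, those with the largest mean rise included, in order, Mmp8, Slfn1, Mcoln2, Plek, Mirt1, Amdhd2, Pram1, Gpr141, Tnfsf14 and Efhd2. The other probes of Mirt1 gave means of 0.08 and 0.83 against 1.09. Pram1, an adaptor of neutrophil signalling, measured -0.48, -0.65 and -0.61 with PBS and 0.36, 0.67 and 0.65 with mimic, and -1.26, -1.36 and -1.30 with PBS and -0.46, -0.34 and -0.26 with antimiR. It rose by 1.14 ± 0.10 and by 0.96 ± 0.10 (adjusted p = 0.00377 and 0.000352, limma), the same order of rise from different levels. Tnfsf14, the cytokine LIGHT, measured 0.68, 0.46 and 0.73 with PBS and 1.60, 1.85 and 1.85 with mimic, and -0.12, 0.22 and -0.12 with PBS and 0.44, 0.63 and 0.68 with antimiR. Its rises were 1.15 ± 0.12 and 0.59 ± 0.12 (adjusted p = 0.00862 and 0.0142), and their difference of 0.56 was not called (adjusted p = 0.171). S100a4, a calcium-binding protein of fibroblasts and leukocytes, rose by 0.67 and 0.70, with 0.75 and 0.69 on its other probe. Bax, a pro-apoptotic protein, had effects of 0.55 and 0.65.

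Inflammatory genes were called upward for the mean in several lists, a call that 1 effect can carry. Called higher for the mimic effect were 1 of 24 cytokines and chemokines and 1 of 19 matrix proteases and inhibitors (background 41 of 20357). Of 17 neutrophil and 23 macrophage markers, 0 and 2 were called higher with mimic. For the antimiR effect the counts of these lists, in the same order, were 8, 5, 2 and 6 (background 5.28%). Of 24 cytokines and chemokines, 8 were called higher for the mean and 0 lower (background 5.08% higher): Il10, Tnf, Tnfsf14, Il1b, Ccl3, Ccl4, Ccl7 and Ccl12. For the difference 0 were called (7 at an unadjusted p under 0.05, limma). Il10 was not well above background on any intact PBS array, so the size of its antimiR effect is uncertain. Ccl3 and Ccl4, which attract monocytes, had effects of 0.81 and 2.20 and of 0.99 and 3.25, and Tnf had 0.66 and 0.86. Ccl3 lost its call on Cy5 alone. Of the 24 genes of this list, 12 were higher in both effects and 1 lower in both, against 30.5% and 28.7% of all genes. A further 8 were lower with mimic and higher with antimiR (21.5% of all genes were), and 3 the reverse. Of 19 matrix proteases and inhibitors, 6 were called higher: Mmp3, Mmp8, Adam8, Ctsb, Ctss and Timp1. Of 17 neutrophil markers, 4 were called higher (Cxcr2, Fpr2, Clec4d and Clec4e). Of the 17, 11 were higher in both effects (30.5% of all genes were), 2 lower in both, and 4 lower with mimic and higher with antimiR. The calls of Cxcr2 and Fpr2 were kept in 17 and 12 of 24 alternatives, and Clec4e lost its call on Cy5 alone. Of 23 macrophage markers, 7 were called higher, among them Fcgr1 with effects of 0.77 and 2.49 and Trem2 with 0.52 and 1.47, and 1 lower (background 4.36%), Lyve1, a marker of resident perivascular macrophages and lymphatic vessels, with -0.64 and -1.74. The list did not move as one: 10 members were higher in both effects and 7 lower in both, against 30.5% and 28.7% of all genes. The median mean of the macrophage list was 0.068 against 0.004 over all genes. Its list score was 0.62, 0.63 and 0.60 with mimic against 0.41, 0.26 and 0.43 in incised skin with PBS, whereas the antimiR arrays, at 0.06, -0.64 and -0.71, overlapped intact PBS at -0.67, -0.34 and -0.47. Leaving out antimiR array 1 raised the macrophage count from 8 to 14, and slide as a term lowered it to 5. The neutrophil count was 2 without mimic array 2 or 3 or antimiR array 2. The cytokine count was 5 on Cy5 alone. In bulk skin, more cells of a type and more RNA per cell cannot be told apart.

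The Mmp8 promoter is shown for the most frequent of the 3 motifs searched among the genes that moved alike upward. The window of 100 bases (RefSeq, GRCm38.p6, chr9:7558179-7558278, plus strand) holds a match to the motif of the myeloid factor PU.1, in capitals, 221 bases before the start.
Mmp8: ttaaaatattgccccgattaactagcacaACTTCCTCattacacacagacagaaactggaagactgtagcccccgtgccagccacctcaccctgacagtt
The motif searched was GAGGAAGT on both strands. It was in 25 of 142 promoters of the genes that moved alike upward (17.6%), in 2 of 64 of those that moved alike downward (3.12%), in 1 of 46 of the genes raised mostly by antimiR (2.17%) and in 499 of 13629 of all tested genes (3.66%).

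**Figure D3:**
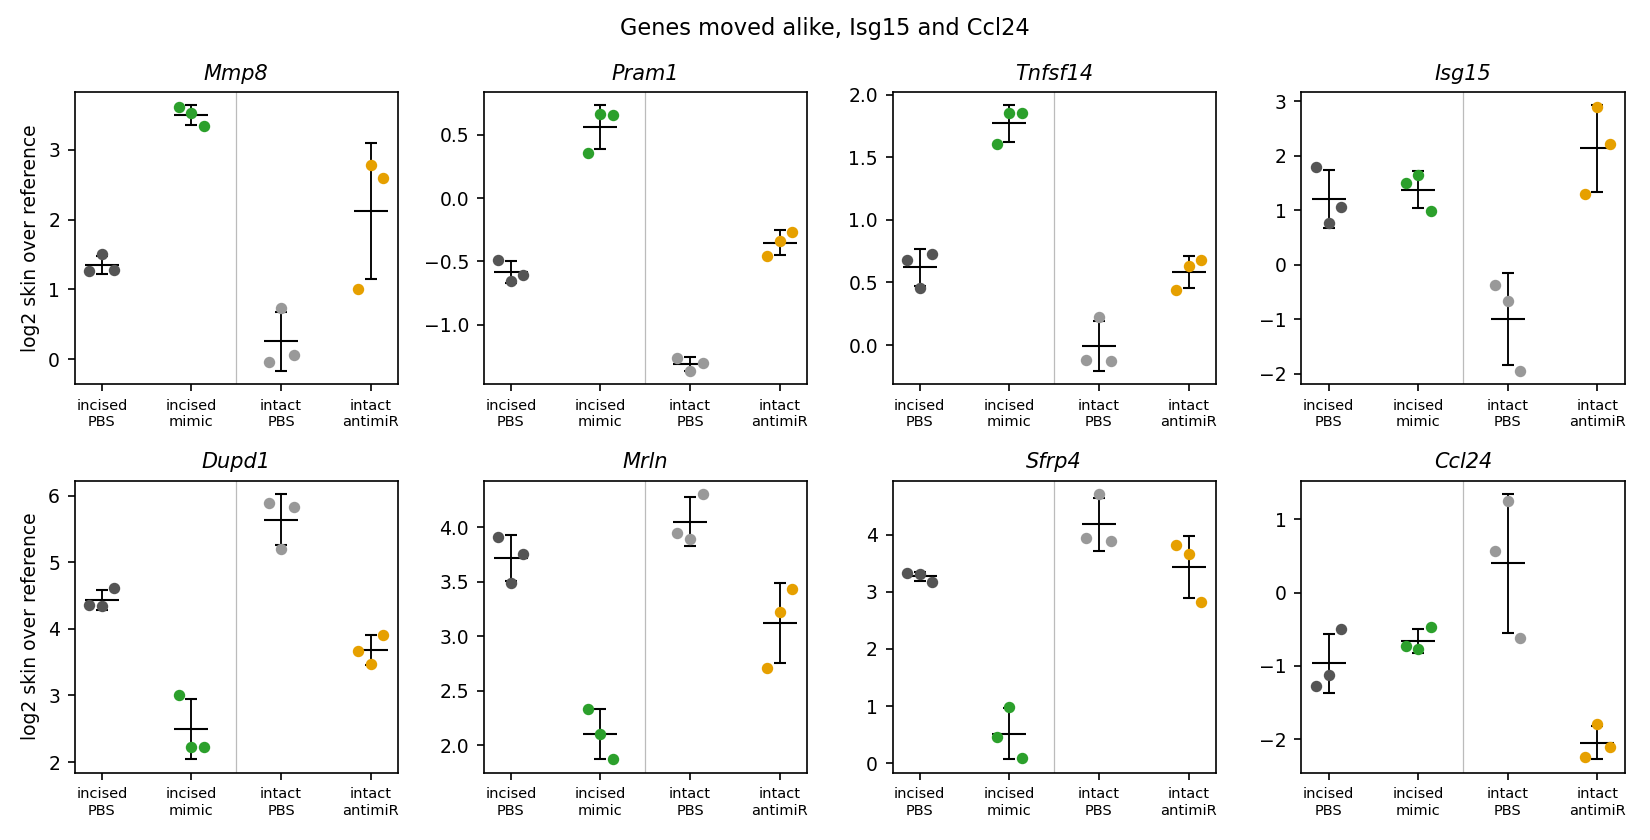
Log2 ratio of skin over reference on every array (points) with the mean and SD of each group of 3 (black), for genes higher with both oligonucleotides (Mmp8, Pram1, Tnfsf14), genes lower with both (Dupd1, Mrln, Sfrp4), Isg15 and Ccl24. In Pram1 and Dupd1 the treated arrays shift from both PBS groups without overlap, in Isg15 the intact PBS arrays alone stand apart, and in Ccl24 the antimiR arrays stand lowest.

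Among the 94 genes that moved alike downward, the 10 with the largest fall included Dupd1, Sfrp4, Lrtm1, Cd209g, Acyp2, Sult1e1, Dmd, Fcna and Mrln. Dmd encodes dystrophin, which anchors the muscle sarcomere to the membrane, and its other probes gave means of -0.83, -0.39 and -0.10 against -1.33. Cd209g is a C-type lectin gene and Fcna encodes ficolin A, a lectin of macrophages. Dupd1, a dual-specificity phosphatase of skeletal muscle (probe at chr14:22495804-22495863), measured 4.35, 4.35 and 4.61 in incised skin with PBS and 3.01, 2.23 and 2.23 with mimic, and 5.90, 5.20 and 5.84 in intact skin with PBS and 3.67, 3.47 and 3.91 with antimiR. It fell by 1.95 ± 0.24 with mimic and by 1.96 ± 0.24 with antimiR on the log2 scale (adjusted p = 0.0091 and 0.000794, limma), and the difference was 0.01 ± 0.33. Mrln, a micropeptide that inhibits the calcium pump of muscle, measured 3.91, 3.49 and 3.75 with PBS and 2.33, 2.11 and 1.87 with mimic, and 3.94, 3.90 and 4.30 with PBS and 2.71, 3.23 and 3.43 with antimiR. Its falls were 1.61 and 0.93 (adjusted p = 0.0091 and 0.015), and Dupd1 and Mrln kept their calls for the mean in 24 of 24 alternatives.

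Of 26 skeletal muscle markers, 25 were lower in both effects (28.7% of all genes were) and 19 were called lower for the mean (background 4.36%), with 0 called for the difference (4 at an unadjusted p under 0.05, limma). Their median effects were -0.63 with mimic and -0.36 with antimiR, and groups did not overlap, in the same direction in both skins, for 15 of 26 (background 6.08%). Myh1, a fast myosin heavy chain, was called in both effects, at -0.56 and -0.49, and Actn3 and Acta1, which build the fast-fibre sarcomere, had means of -0.81 ± 0.14 and -0.55 ± 0.09 (adjusted p = 0.00641 and 0.0047, limma). Myh1 and Actn3 kept their calls in 24 of 24 alternatives. The count of 19 was 3 with slide as a term, 8 with a trended and robust variance, 10 on Cy5 alone and 12 without mimic array 2. On the list score, mimic arrays lay at -0.12, -0.51 and -0.40 against incised PBS at 0.29, 0.16 and 0.28, and antimiR arrays at 0.06, -0.12 and -0.24 against intact PBS at 0.16, 0.34 and 0.21. Whether the amount of muscle under the sampled skin had a part in these values was not tested.

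Of 15 fibroblast markers, 7 were called lower for the mean (background 4.36%) and 1, S100a4, higher (background 5.08%). Called lower were 4 for the mimic effect (background 0.388%) and 1 for the antimiR effect (background 4.48%), and the median effects were -0.67 and -0.20. For the difference 0 of 15 were called in limma (5 at an unadjusted p under 0.05), so a larger fall with mimic was not called for any of them. Sfrp4, a secreted Wnt modulator, measured 3.33, 3.31 and 3.18 in incised skin with PBS and 0.46, 0.99 and 0.09 with mimic, and 3.95, 4.72 and 3.88 in intact skin with PBS and 3.82, 3.67 and 2.82 with antimiR. The mimic effect of -2.76 ± 0.30 was called (adjusted p = 0.00862) and the antimiR effect of -0.75 ± 0.30 was not (adjusted p = 0.156), and their difference was -2.01 ± 0.43 (adjusted p = 0.0564, limma). The difference was called in 6 of 24 alternatives, among them without antimiR array 3 (-2.32, adjusted p = 0.0356). Pi16, a marker of adventitial fibroblasts, had effects of -1.60 and -0.69, and Scara5, a ferritin receptor of the same cells, had effects of -1.26 and -0.97 on its brightest probe but of -0.59 and -0.09 on its other probe, where the mean was not called (adjusted p = 0.0534, limma). The fibroblast count for the mean was 8 in all, 4 on Cy5 alone and 3 with slide as a term. The lowest falls also included Sult1e1, an estrogen sulfotransferase, which was not well above background with mimic, at least 3.70-fold lower than with PBS.

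The Dupd1 promoter is shown as the gene with the largest alike fall. The window holds the 100 bases before the start (RefSeq, GRCm38.p6, chr14:21714577-21714676, minus strand), with a match to the muscle factor MEF2 in capitals, 35 bases before the start.
Dupd1: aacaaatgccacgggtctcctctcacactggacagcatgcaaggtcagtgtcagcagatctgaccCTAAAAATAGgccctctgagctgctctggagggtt
The motif searched was CTA, any 4 bases, TAG, on both strands. It was in 5 of 64 promoters of the genes that moved alike downward (7.81%), in 1 of 19 of the skeletal muscle markers (5.26%) and in 545 of 13629 of all tested genes (4.0%).

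Among 24 genes of oxidative phosphorylation, 23 were lower in both effects, compared with 28.7% of all genes, and 8 were called lower for the mean (background 4.36%), with medians of -0.24 and -0.31. Atp5a1, a subunit of ATP synthase, had effects of -0.28 and -0.52 and a mean called at an adjusted p = 0.00179 (limma). Cox6a2 and Cox8b, isoforms of cytochrome oxidase typical of muscle, had means of -0.74 and -0.56. The count was 1 on Cy5 alone, 4 without mimic array 2 or with slide as a term, 5 in each of 6 other alternatives and 14 without intact PBS array 1. Of 17 adipocyte markers, 15 were lower in both effects but 1, Thrsp, was called lower for the mean (background 4.36%). The call of Thrsp was kept in 11 of 24 alternatives. Adipocyte scores ranged widely within groups, with incised PBS array 2 at 1.1, mimic array 3 at 0.63 and intact PBS array 3 at 1.05.

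**Figure D4:**
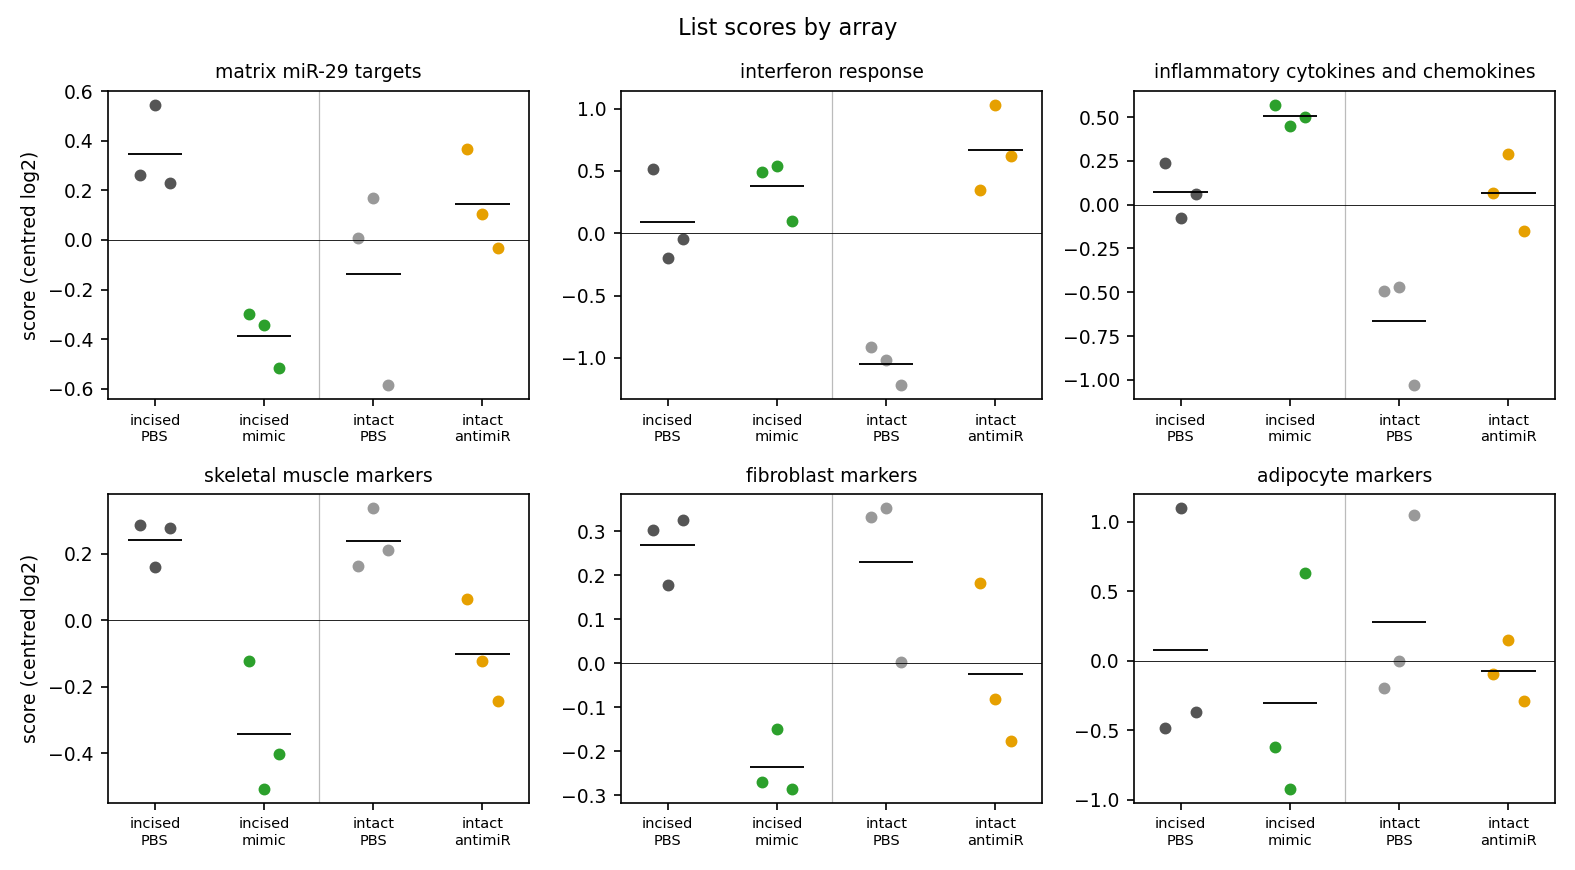
List score on every array (points; median over members of log2 ratios centred across the 12 arrays) with the group mean (black line) for 6 lists. Interferon scores separate intact PBS from the other 3 groups, muscle scores are lower with either oligonucleotide than with PBS, and adipocyte scores overlap in all groups.

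The 8 genes changed mostly by mimic were Sypl2, Cdon, Prickle1, Gdf1, C1qtnf1, Myadml2, Lca5l and Sprtn, named as all members of that small class after their values were seen. Sypl2, a membrane protein of the muscle triad, measured 3.27, 3.38 and 3.04 in incised skin with PBS and 2.22, 1.75 and 1.74 with mimic, and 3.51, 3.56 and 3.51 in intact skin with PBS and 3.76, 3.44 and 3.59 with antimiR. It fell by 1.33 ± 0.14 with mimic (adjusted p = 0.00862) and had an antimiR effect of 0.07, with a difference of -1.40 ± 0.20 (adjusted p = 0.0111, limma). Cdon, a Hedgehog co-receptor, and Prickle1, a planar polarity protein, had differences of -1.01 and -0.97. Sprtn, a protease that repairs DNA-protein crosslinks, was the one gene of the 8 that was higher with mimic, with a difference of 0.70 ± 0.14 (adjusted p = 0.0462). All 8 lost the call with slide as a term. Except for Prickle1, each had a second probe, and the adjusted p for the difference on these 7 probes was 0.219 to 0.991 (limma). The second probe gave -0.33 for Sypl2, -0.26 for Cdon and 0.01 for Sprtn.

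Genes with the same sign and unequal size were Sirpb1a, Rnf213 and Msrb3. Sirpb1a, a myeloid receptor, rose by 2.42 ± 0.21 with antimiR and had a mimic effect of 0.65 ± 0.21, a difference of -1.77 ± 0.30 (adjusted p = 0.0221, limma), and Rnf213, an interferon-responsive ubiquitin ligase, had effects of 0.52 and 2.20. Msrb3, a methionine sulfoxide reductase, was lower by 0.52 and 1.15, with a difference of 0.63 (adjusted p = 0.0175). Sirpb1a and Rnf213 each kept the call in 13 of 24 alternatives, with differences reaching -0.89 and -0.79 at the smallest, and Msrb3 kept it in 20. With slide as a term none of the 3 was called, at adjusted p = 0.0750, 0.160 and 0.106. The other probe of Rnf213 gave 0.10, and those of Sirpb1a, which belongs to a family of close copies, gave -1.09 and -1.56.

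Of 8 basal keratinocyte markers, 21 epidermal differentiation genes and 18 genes of wound keratinocyte activation, 0 were called for the difference or the mean in limma. At an unadjusted p under 0.05 the mean passed for 3, 5 and 2 of them. Their median effects were -0.09 and -0.17, -0.16 and -0.20, and -0.03 and -0.12. Lower in both effects were 5 of 8, 15 of 21 and 6 of 18, against 28.7% of all genes. Hair follicle markers had a median antimiR effect of -0.57, which was 0.11 without intact PBS array 2, where their list score was 2.15, and 0 of 18 were called in limma, nor did any pass an unadjusted p under 0.05 for the difference or the mean. Of 28 cell cycle genes 0 were called in limma (2 at an unadjusted p under 0.05 for the difference and 0 for the mean), with 18 higher with mimic and lower with antimiR, medians of 0.23 and -0.06, and an antimiR median of 0.62 with slide as a term.

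**Figure D5:**
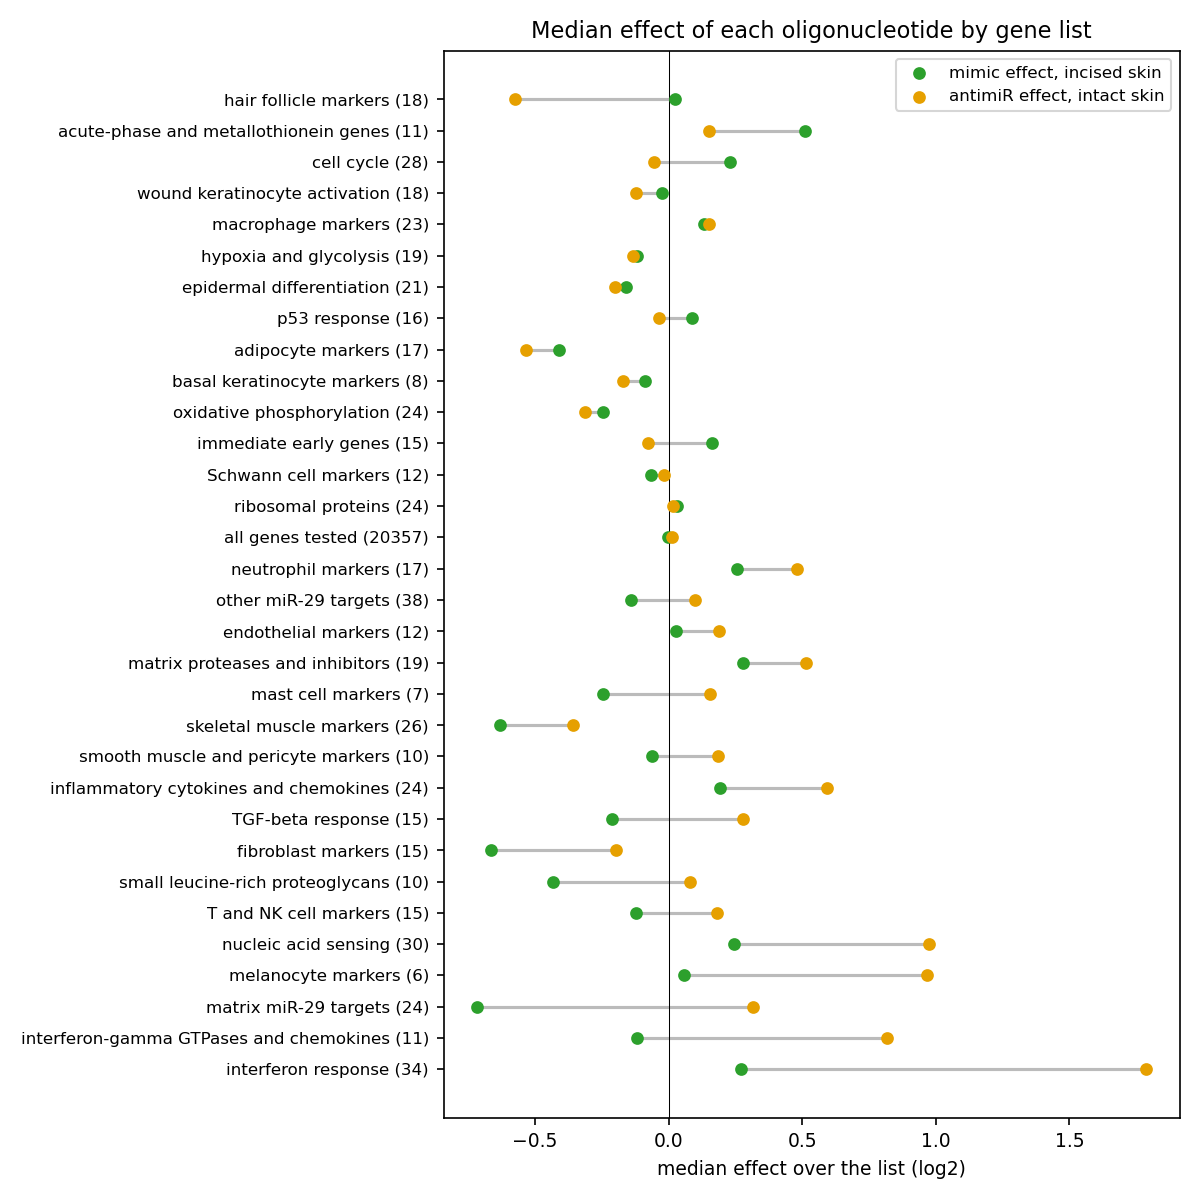
Median mimic effect (green) and median antimiR effect (orange) in log2 units over each gene list, with the number of genes measured in brackets and lists ordered by the median difference of effects. Matrix miR-29 targets lie at -0.72 and 0.31 on opposite sides of 0, the interferon response at 0.27 and 1.79, skeletal muscle markers at -0.63 and -0.36, and all genes tested near 0.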

How the data were processed

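Levels were read from the scanner files of 12 two-colour arrays. Per the file headers, Agilent Feature Extraction 11.5.1.1 gave each spot's mean intensity and the median intensity of its local background, with probe positions on mm9. Per the labels, Cy5 held skin and Cy3 the reference on every array, with no dye swap. The authors also deposited a table of log2 ratios by gene name, whose normalization and direction are not given in the sources used here. Its columns correlated with the scanner ratios at r = 0.891 to 0.918 over 18030 genes, with exact 0 in 6.87 to 13.1% of values, and it served as an alternative.

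Intensities were corrected by normexp (offset 50) and normalized within arrays by loess, control spots having weight 0, without further scaling. Spots flagged as outliers were dropped. Of 39429 probes, 27151 had a gene name and a Cy5 signal that passed the scanner's background test on 3 or more of the 12 arrays. These were kept, and 1687 further probes that passed without a gene name were left out. The brightest probe stood for each gene (5375 genes had several). Names came from RefSeq by accession for 16175 genes, by symbol for 1262, and from the files for 2938. A fit over the 4 groups of 3 with limma 3.58.1 in R 4.3.3 (lmFit, eBayes, 8 residual degrees of freedom, 2-sided) gave each contrast, and p-values were adjusted by Benjamini-Hochberg over all genes. The fit was tested on simulated data. The 1 lower bound printed compares Cy5 levels after loess and Aquantile normalization and is open to dye bias, since no dyes were swapped. The labels do not say whether replicates came from separate cages or surgeries, and p-values measure the spread between these samples. The small number of arrays limits the precision.

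Named genes were the 10 largest each way among genes moved oppositely, moved alike and called in both effects, up to 4 members of each list by smallest p for the difference and the mean, and a short set of known miR-29 targets and Isg15. Others are said to have been chosen after their values were seen, or are named as members of a list or class counted. Some genes that met these rules are not reported here. Members, the 31 lists and the rules were chosen with earlier results of these data known. Slide numbers were read from the array identifiers. Alternatives were no background correction, the scanner's processed signals, Cy5 alone, scaling between arrays, the deposited table, other filters on dim probes, a mean over probes, a trended and robust variance, slide as a fixed or random block, the replicate number as a block, each effect in its own 6 arrays, and leaving out each array.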

Additional observations from a re-analysis of the deposited data

How the results depend on the processing

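The 223 calls for the difference became 369 with processed signals, 69 on Cy5 alone, 17 with slide as a fixed block, 126 with slide as a random block (consensus correlation 0.113), and 64 (without incised PBS array 1) to 415 (without intact PBS array 3) when 1 array was left out. The share of these calls that was higher was 57.4%, but 70.0% in the deposited table and 45.2% without incised PBS array 2. The 1921 calls for the mean became 1029 on Cy5 alone and 1248 to 2202 with 1 array left out, and 64.2% of the calls were higher on Cy5 alone against 53.8%. Genes moved oppositely, 6, became 24 with processed signals, 15 in the deposited table, 10 with a trended and robust variance, 3 with slide as a random block and 2 (without incised PBS array 1) to 17 (without intact PBS array 2) with 1 array left out. The count of genes moved alike stayed within 1.5 times 287 in each alternative run. Of those measured, 267 of 272 to 287 of 287 kept the same sign in both effects. The 42 genes called in both became 15 with processed signals, 15 on Cy5 alone, 14 in the deposited table, 0 with slide as a fixed block, 22 with slide as a random block and 1 to 99 (without intact PBS array 2) with 1 array left out. The 0 called in opposite directions became 1 with processed signals, 1 with scaling between arrays and 0 to 3 with 1 array left out. Mimic calls, 120, became 38 with processed signals, 45 on Cy5 alone, 35 in the deposited table, 69 with a trended and robust variance, 0 and 59 with slide as a fixed and a random block, 437 in its own 6 arrays, and 1 (without incised PBS array 1) to 245 (without intact PBS array 2) with 1 array left out. AntimiR calls, 1986, became 1178 on Cy5 alone, 539 in its own 6 arrays and 1093 to 2089 with 1 array left out. The fixed slide block leaves 1 array on 1 side of each effect; for the other settings the cause was not tested.

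The main fit did not pair samples by replicate number. Deviations of same-numbered arrays from their group means correlated at -0.437 to 0.475, and whether the numbers mark pairs was not tested. With the replicate number as a block, 169 genes were called for the difference, 1558 for the mean, 77 for the mimic effect and 25 in both effects.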
